A study of Homo sapiens with 24 samples.

Results

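The 10 genes described here are PPP1R3A, CDC42BPA, NCAM1, ANKRD26, TCAF1, DPP10, CCDC88A, ZNF215, EYS and PELO, chosen by measured values: they were selected on large falls in signal in a THP-1 line carrying a NOD1 cassette against the empty-vector line, both without doxycycline (DOX). They are 10 of 18417 genes with a probe set of their own, and 16 of the 19460 probe sets that carry 1 gene symbol. TCAF1 has 3 of these probe sets, EYS has 5 and the other genes have 1 each. THP-1 is a human monocytic leukaemia line. The study transduced it with lentiviruses in which a tetracycline-responsive promoter drives FLAG-tagged NOD1 (Nod1-FL), FLAG-tagged NLRP4 (Nalp4-FL) or no coding sequence (Control-C), here called the NOD1, NLRP4 and vector lines. All 3 lines were infected at low copy and selected with G418, and the labels do not say whether a line was 1 clone. Cells were seeded at 50000 per well, were left without DOX (minusDOX) or received it at 1 µg/ml for 6 h (plusDOX), and were measured on Human Gene ST arrays, 4 per group in 6 groups. NOD1 is an intracellular sensor of bacterial cell-wall fragments, and NLRP4 belongs to the same wider family of proteins. Nothing in the labels says that the 4 samples of a group came from separate cultures, so each p-value measures the spread between these samples, which may be technical.

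The 10 genes share no single pathway. PPP1R3A carries protein phosphatase 1 to glycogen and is best known from striated muscle. CDC42BPA, also called MRCK alpha, is a kinase bound by the small GTPase CDC42 that acts on myosin-driven contraction, and CCDC88A, or girdin, binds actin and modulates trimeric G proteins. NCAM1 is the adhesion molecule CD56, a marker of natural killer and neural cells that some myeloid leukaemias carry. DPP10 is a dipeptidyl peptidase relative without peptidase activity that joins Kv4 potassium channels, and TCAF1 associates with TRPM channels. ANKRD26 is a protein of the distal appendages of the centriole. PELO, or pelota, rescues stalled ribosomes, ZNF215 is a zinc finger protein, and EYS is an extracellular protein needed by photoreceptors.

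The stretches before the gene starts differed in base composition among these genes. Of the 10, 9 matched a RefSeq promoter entry on GRCh38.p14, and the first entry of each gene was taken, 250 bases before the start. The window of TCAF1 lies within the RefSeq span of the gene, so its entry is not the outermost start. The 4 windows printed were chosen after their base composition was known: they hold the fewest (EYS, PPP1R3A) and the most (CDC42BPA, CCDC88A) CG pairs. Each is written 5′ to 3′ on the gene's own strand, and capitals mark CG.

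PPP1R3A, chr7:113919010-113919259, minus strand: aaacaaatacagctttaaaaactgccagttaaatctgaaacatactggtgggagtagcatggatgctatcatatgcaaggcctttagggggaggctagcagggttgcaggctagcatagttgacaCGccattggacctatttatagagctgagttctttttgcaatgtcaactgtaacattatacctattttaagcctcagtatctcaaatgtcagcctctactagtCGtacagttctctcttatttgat

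EYS, chr6:65707227-65707476, minus strand: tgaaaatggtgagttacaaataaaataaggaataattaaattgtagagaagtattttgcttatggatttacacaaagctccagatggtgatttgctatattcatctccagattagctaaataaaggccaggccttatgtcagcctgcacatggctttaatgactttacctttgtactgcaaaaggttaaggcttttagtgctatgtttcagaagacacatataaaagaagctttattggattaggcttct

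CDC42BPA, chr1:227318493-227318742, minus strand: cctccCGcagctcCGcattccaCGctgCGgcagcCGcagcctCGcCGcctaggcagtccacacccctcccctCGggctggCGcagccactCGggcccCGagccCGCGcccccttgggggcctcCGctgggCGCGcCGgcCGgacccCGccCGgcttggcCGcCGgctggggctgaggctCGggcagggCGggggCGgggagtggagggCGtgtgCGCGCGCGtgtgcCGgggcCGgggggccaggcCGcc

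CCDC88A, chr2:55419857-55420106, minus strand: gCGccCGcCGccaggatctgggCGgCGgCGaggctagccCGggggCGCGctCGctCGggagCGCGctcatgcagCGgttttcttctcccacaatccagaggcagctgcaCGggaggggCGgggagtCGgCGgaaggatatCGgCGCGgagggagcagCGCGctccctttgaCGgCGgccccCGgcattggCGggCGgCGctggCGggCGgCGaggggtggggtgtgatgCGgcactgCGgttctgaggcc

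The window of EYS held 0 CG pairs at a GC content of 34.0%, and that of PPP1R3A held 2 at 40.4%. In contrast, the window of CDC42BPA held 33 at 82.4% and that of CCDC88A held 34 at 74.8%. The other 5 genes lay between them, with 4 CG pairs for DPP10, 12 for ZNF215, 16 for PELO, 17 for TCAF1 and 20 for ANKRD26. That order depends on the entry taken: DPP10 has 6 entries, whose windows hold 4, 2, 1, 28, 34 and 33 CG pairs, while ZNF215 and EYS have 2 each. The median was 16 CG pairs in these 9 windows and 18 in the windows of 14239 measured genes. The latter, which include the 9 windows, ranged from 0 to 59 CG pairs. Searched on both strands, TATAAA was found in 2 of the 9 windows (22.2%; 8.60% of all windows), CCAAT in 6 (66.7%; 34.4%), GGGCGG in 4 (44.4%; 57.5%) and GAGGAA in 1 (11.1%; 23.6%). None of these 4 letter strings was in every window, and with 9 windows the shares describe these genes only. The 10 genes lie on 7 chromosomes. Their median length was 142 kb against 24.5 kb over 18392 measured genes with a RefSeq entry, and 6 of the 10 were longer than 100 kb, against 17% of those genes.

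The NOD1 arrays followed their label. NOD1 had a mean log2 signal of 8.74 in the NOD1 line without DOX and 12.75 with it, and lay between 8.29 and 8.52 in the other lines. Of 12 measured monocyte and myeloid markers, 9 were above the low-signal reference in all 6 groups; LYZ reached 13.84, whereas CD14 lay between 7.71 and 8.01. That reference is a log2 signal of 8.00, the 90th percentile of 360 olfactory receptor probe sets, and 29.0% of all tested probe sets lie below it. Of 7 T cell markers, 6 were below it in every group. However, 3 of 5 B cell markers and 3 of 6 erythroid and megakaryocyte markers were above it in every group. A signal above this reference therefore does not by itself mark a cell type. The mean over the myeloid list was higher on the NOD1 arrays, at 10.32 to 10.54, than on the vector arrays, at 9.86 to 10.08, and the NLRP4 arrays, at 9.95 to 10.08. The mean over the 5 epithelial markers was lower on the NOD1 arrays, at 7.72 to 8.14, than on the vector arrays, at 8.16 to 8.67, and the NLRP4 arrays, at 8.23 to 8.66. Of the 5, EPCAM carried most of that shift. Its group means were 8.72 to 9.23 in the vector and NLRP4 lines and 7.12 and 6.94 in the NOD1 line. KRT8, a keratin, lay between 8.23 and 8.67 in the former and at 8.28 and 8.31 in the latter. In the same order, KRT18 lay between 8.81 and 8.86 and at 8.72 and 8.75. KRT19 lay between 8.58 and 8.76 and at 8.53 and 8.47. CDH1 was slightly higher in the NOD1 line, between 7.26 and 7.32 and at 7.38 and 7.33. The part of these shifts in the falls described here was not tested. The labels number the arrays in 1 block per line, and within each block the arrays without DOX come before those with DOX. They also state that plate order was not randomised, so neither line nor DOX can be told apart from position. In cultured cells measured in bulk, fewer cells with the RNA and less RNA per cell cannot be told apart either.

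PPP1R3A and CDC42BPA fell furthest. On the log2 scale the signals of PPP1R3A were 10.06, 10.17, 10.23 and 10.47 in the vector line with DOX, 9.98, 10.10, 10.20 and 10.73 in the NLRP4 line with DOX, and 6.34, 6.52, 6.66 and 6.89 in the NOD1 line with DOX. Without DOX they were 10.02, 10.06, 10.29 and 10.39 in the vector line, 10.22, 10.24, 10.25 and 10.26 in the NLRP4 line, and 6.59, 6.67, 6.69 and 7.13 in the NOD1 line. All 8 NOD1 arrays lay far below all 16 others and below the low-signal reference. The difference between the NOD1 and vector lines with DOX was -3.63 ± 0.145 (SE), at least 12.4-fold, with an adjusted p of 2.72e-14 by limma over all probe sets. CDC42BPA signals were 10.69, 10.72, 10.93 and 10.95 in the vector line with DOX, 10.55, 10.69, 10.71 and 10.76 in the NLRP4 line with DOX, and 7.36, 7.63, 7.71 and 7.84 in the NOD1 line with DOX. Without DOX they were 10.56, 10.74, 10.76 and 10.93, then 10.66, 10.68, 10.76 and 10.77, then 7.21, 7.34, 7.65 and 8.06 in the same order of lines. The NOD1 arrays again stood apart from all the others, and 1 of the 8, without DOX, was above the low-signal reference. The difference with DOX was -3.19 ± 0.134 (SE), at least 9.12-fold (limma adjusted p = 5.59e-14).

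**Figure D1:**
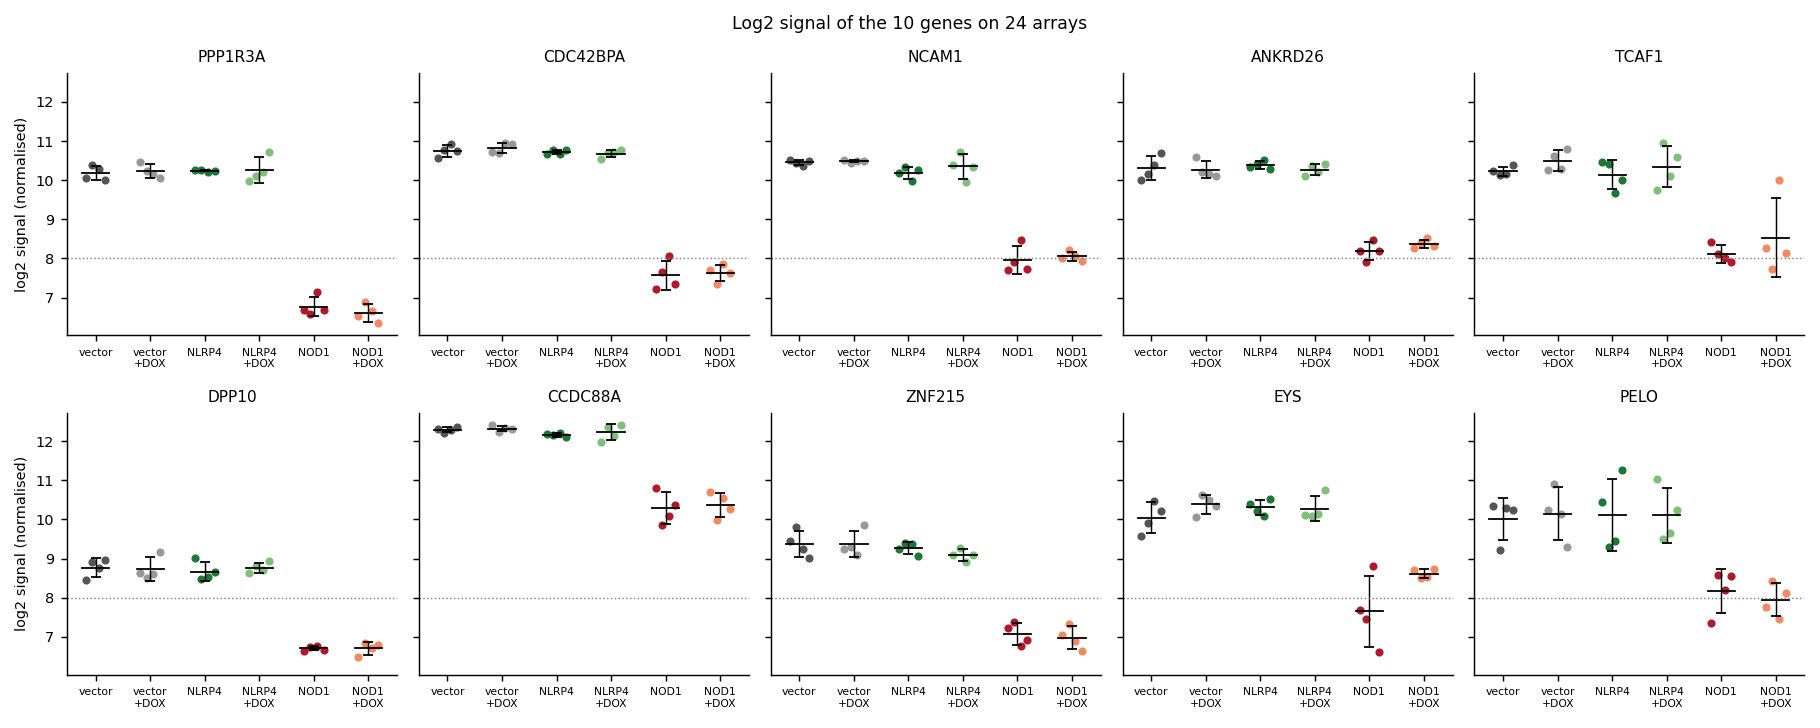
Log2 signal, quantile normalised, of the 10 genes on each of the 24 arrays, 1 panel per gene; points are arrays, short bars are group means with SD (n = 4), and the dotted line is the low-signal reference at 8.00. In 9 of the 10 panels all 8 NOD1 arrays lie below all 16 vector and NLRP4 arrays, and in the panel of TCAF1 1 NOD1 array with DOX lies at 10.00, among the others. The NOD1 and vector arrays without DOX entered the choice of the genes, which favours this separation. The share of all probe sets separated in this way was not counted.

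Among the genes of the cell surface and its channels, NCAM1 fell from well above the low-signal reference to about its level. Its log2 signals were 10.45, 10.48, 10.50 and 10.51 in the vector line with DOX, 9.95, 10.34, 10.40 and 10.71 in the NLRP4 line with DOX, and 7.94, 8.01, 8.06 and 8.22 in the NOD1 line with DOX. Without DOX the vector arrays were at 10.35, 10.44, 10.50 and 10.52, the NLRP4 arrays at 9.98, 10.19, 10.26 and 10.33, and the NOD1 arrays at 7.71, 7.72, 7.90 and 8.47. The NOD1 groups lay at the low-signal reference, and the 4 NLRP4 arrays without DOX lay just below the 4 vector arrays without DOX. NCAM1 was lower in the NOD1 line than in the vector line with DOX by a log2 difference of -2.43 ± 0.141 (SE), 5.38-fold (limma adjusted p = 4.39e-11). Of 7 natural killer cell markers other than NCAM1, 4 were below the low-signal reference in all groups, and the mean over that list was 7.17 to 7.34 on the vector arrays, 7.31 to 7.40 on the NLRP4 arrays and 7.24 to 7.40 on the NOD1 arrays.

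DPP10 was above the low-signal reference in the vector and NLRP4 lines and below it in the NOD1 line. Its log2 signals ranged from 8.45 to 9.18, median 8.68, over the 16 vector and NLRP4 arrays and from 6.47 to 6.84, median 6.72, over the 8 NOD1 arrays. This held for every single array. The difference between the NOD1 and vector lines with DOX was -2.03 ± 0.137 (SE), at least 4.07-fold (limma adjusted p = 5.59e-10).

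TCAF1 was the only one of the 10 genes whose NOD1 arrays overlapped the others, because of 1 array. The brightest of its 3 probe sets, 8143597, gave log2 signals of 10.26, 10.29, 10.62 and 10.80 in the vector line with DOX, 9.74, 10.11, 10.58 and 10.94 in the NLRP4 line with DOX, and 7.72, 8.13, 8.26 and 10.00 in the NOD1 line with DOX. Without DOX it gave 10.13, 10.15, 10.24 and 10.38 in the vector line, 9.68, 10.01, 10.41 and 10.46 in the NLRP4 line, and 7.90, 8.01, 8.11 and 8.42 in the NOD1 line. Replicate 3 of the NOD1 line with DOX, at 10.00, was above the lowest NLRP4 array. The difference between the NOD1 and vector lines with DOX was -1.97 ± 0.322 (SE), 3.91-fold (limma adjusted p = 6.06e-05), and without that replicate it was -2.46 (limma adjusted p = 9.23e-08).

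The other probe sets of TCAF1 did not repeat that size of fall. Probe set 8180403 gave 9.62, 9.84, 10.12 and 10.13 in the vector line with DOX, 9.89, 10.00, 10.04 and 10.38 in the NLRP4 line with DOX, and 8.59, 8.76, 9.10 and 9.13 in the NOD1 line with DOX. The NOD1 arrays lay below those of the other lines, and the difference from the vector line was -1.03 ± 0.147 (SE), 2.05-fold (limma adjusted p = 1.04e-05). Replicate 3 of the NOD1 line, high in the first probe set, was at 9.13 in this one, beside replicate 4 at 9.10. Probe set 8143605 had group means between 6.40 and 6.75, under the low-signal reference in all 6 groups, and its difference was -0.13 (limma adjusted p = 0.658).

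Among the cytoskeletal and centriolar genes, CCDC88A fell but stayed well above the low-signal reference. Its log2 signals were 12.25, 12.31, 12.33 and 12.41 in the vector line with DOX, 11.99, 12.12, 12.37 and 12.42 in the NLRP4 line with DOX, and 10.00, 10.27, 10.55 and 10.70 in the NOD1 line with DOX. Without DOX they were 12.21, 12.29, 12.32 and 12.37 in the vector line, 12.10, 12.16, 12.18 and 12.21 in the NLRP4 line, and 9.87, 10.10, 10.37 and 10.81 in the NOD1 line. The groups of the NOD1 line did not overlap those of the other lines. The difference with DOX was -1.95 ± 0.151 (SE), 3.86-fold (limma adjusted p = 3.77e-09), which leaves a signal that does not bear out calling this gene largely lost. ANKRD26 ranged from 9.99 to 10.69, median 10.31, over the 16 vector and NLRP4 arrays and from 7.90 to 8.52, median 8.29, over the 8 NOD1 arrays. It was lower in the NOD1 line than in the vector line with DOX by -1.89 ± 0.132 (SE) in log2 signal, 3.71-fold (limma adjusted p = 1.03e-09).

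PELO and ZNF215, which act in translation and in the nucleus, differed in the spread of their arrays. PELO had the largest within-group SD when pooled over the 6 groups, 0.654, with log2 signals of 9.29, 10.15, 10.24 and 10.92 in the vector line with DOX, 9.49, 9.66, 10.24 and 11.03 in the NLRP4 line with DOX, and 7.46, 7.76, 8.12 and 8.44 in the NOD1 line with DOX. Without DOX it was at 9.21, 10.25, 10.28 and 10.34 in the vector line, 9.30, 9.44, 10.45 and 11.26 in the NLRP4 line, and 7.37, 8.20, 8.56 and 8.57 in the NOD1 line. All 8 NOD1 arrays were still below the other 16. The difference between the NOD1 and vector lines with DOX was -2.20 ± 0.411 (SE), at least 4.61-fold, with the highest limma adjusted p of the 10 genes, 0.000251. A further probe set carries PELO together with ITGA1, the gene in which PELO lies, and was not used. ZNF215 ranged from 8.91 to 9.85, median 9.24, over the 16 vector and NLRP4 arrays and from 6.64 to 7.37, median 6.99, over the 8 NOD1 arrays, all under the low-signal reference. Its difference was -2.40 ± 0.173 (SE), at least 5.28-fold (limma adjusted p = 1.46e-09).

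EYS rested on 1 probe set of 5. Probe set 8127391 gave log2 signals of 10.05, 10.36, 10.49 and 10.63 in the vector line with DOX, 10.09, 10.13, 10.15 and 10.75 in the NLRP4 line with DOX, and 8.49, 8.53, 8.72 and 8.73 in the NOD1 line with DOX. Without DOX it gave 9.58, 9.91, 10.22 and 10.48 in the vector line, 10.09, 10.21, 10.41 and 10.53 in the NLRP4 line, and 6.61, 7.47, 7.69 and 8.82 in the NOD1 line. The NOD1 line without DOX spread over more than 2 log2 units, and its highest array lay above the 4 NOD1 arrays with DOX. The difference between the NOD1 and vector lines with DOX was -1.77 ± 0.283 (SE), 3.40-fold (limma adjusted p = 4.69e-05). The other 4 probe sets, 8127396, 8127393, 8127399 and 8127408, had group means from 5.29 to 6.65, under the low-signal reference in every group. Their differences between the NOD1 and vector lines with DOX were 0.01, -0.16, 0.11 and -0.28 (limma adjusted p = 0.978, 0.317, 0.546 and 0.0508), so none of them passed the test.

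**Figure D2:**
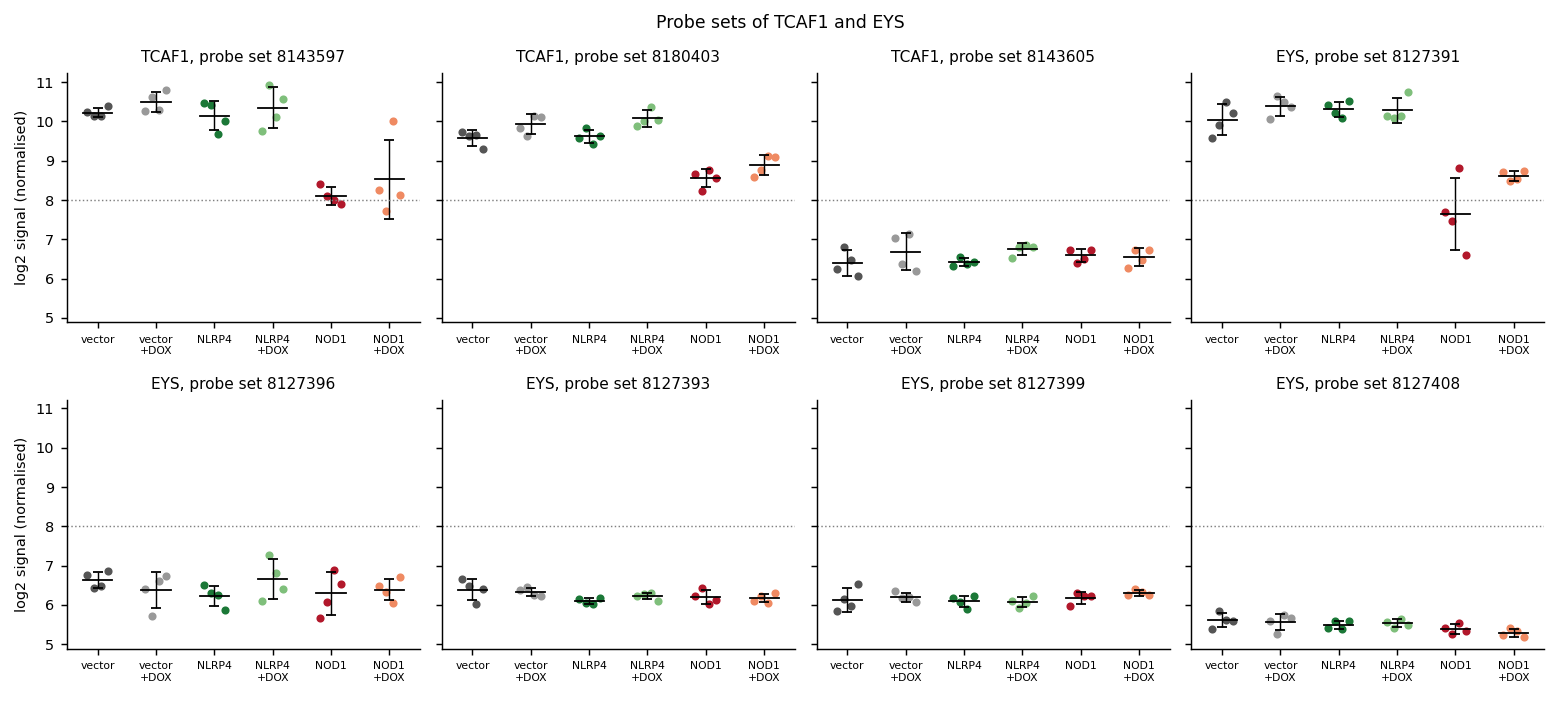
Log2 signal, quantile normalised, of the 3 probe sets of TCAF1 and the 5 probe sets of EYS on each array; points are arrays, bars are group means with SD (n = 4), and the dotted line is the low-signal reference at 8.00. The NOD1 arrays are low in 2 probe sets of TCAF1 and in 1 of EYS, and the other 5 probe sets lie under the reference in every group.

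The contrast on which the genes were chosen, the NOD1 against the vector line without DOX, is given as a description. There the differences in log2 signal ran from -3.42 for PPP1R3A to -1.85 for PELO, with a median of -2.21. CDC42BPA was at -3.19, NCAM1 at -2.50, EYS at -2.40, ZNF215 at -2.30, ANKRD26 and TCAF1 each at -2.12, DPP10 at -2.07 and CCDC88A at -2.01. Ordered by this difference, the 10 genes hold ranks 1 to 9 and 12 among genes whose arrays did not overlap. TMEM14EP at -1.90 and ZNF847P at -1.88 lie between CCDC88A and PELO and are not among the 10, and MCUB at -1.84, SAMD9 at -1.81 and UGGT2 at -1.80 follow PELO. Against the NLRP4 line without DOX, whose comparison shares the NOD1 arrays with that contrast, the differences ran from -3.47 to -1.87 with a median of -2.19.

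The DOX-treated arrays were not used in the choice and allowed a test, though they hold further samples of the same 3 lines and not an independent NOD1 line. All 10 genes were lower in the NOD1 than in the vector line at an adjusted p under 0.05 by limma, against 12% of the 19460 probe sets tested. The median difference of the 10 genes was -2.12, with a range from -3.63 to -1.77, and that of all probe sets was 0.03. The 4 NOD1 arrays lay below the 4 vector arrays without overlap in all 10 genes, against 13.0% of probe sets, and the exact two-sided permutation p of each was 0.0286, the smallest that 4 against 4 arrays allow.

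Against the NLRP4 line with DOX, all 10 genes were again lower in the NOD1 line by limma, against 11.8% of probe sets. This comparison shares the NOD1 arrays with the one before. The differences ran from -3.65 for PPP1R3A to -1.66 for EYS, with a median of -2.09, beside 0.02 over all probe sets. CDC42BPA differed by -3.04, NCAM1 by -2.29, PELO by -2.16, ZNF215 by -2.12, DPP10 by -2.07, ANKRD26 by -1.90, CCDC88A by -1.85 and TCAF1 by -1.82. The highest adjusted p was 0.000321, for PELO. In 9 of the 10 genes the arrays did not overlap, against 12% of probe sets. The exception was TCAF1, with an exact two-sided permutation p of 0.0571 and a limma adjusted p of 0.000153. In a limma fit to only the arrays compared, its adjusted p was 0.0103.

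The NLRP4 and vector lines, both treated with DOX, differed in none of the 10 genes by limma on the probe set that represents each, at adjusted or unadjusted p under 0.05. Of all probe sets, 0.0308% were called in this comparison, and 1193 had an unadjusted p under 0.05. The differences lay between -0.28 for ZNF215 and 0.04 for DPP10, with a median of -0.10. The 95% intervals were narrowest for ANKRD26, from -0.27 to 0.28, and CDC42BPA, from -0.42 to 0.13. They were widest for PELO, from -0.89 to 0.81, and TCAF1, from -0.82 to 0.52. Over the 10 genes no interval reached the size of the smallest fall in the NOD1 line.

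**Figure D3:**
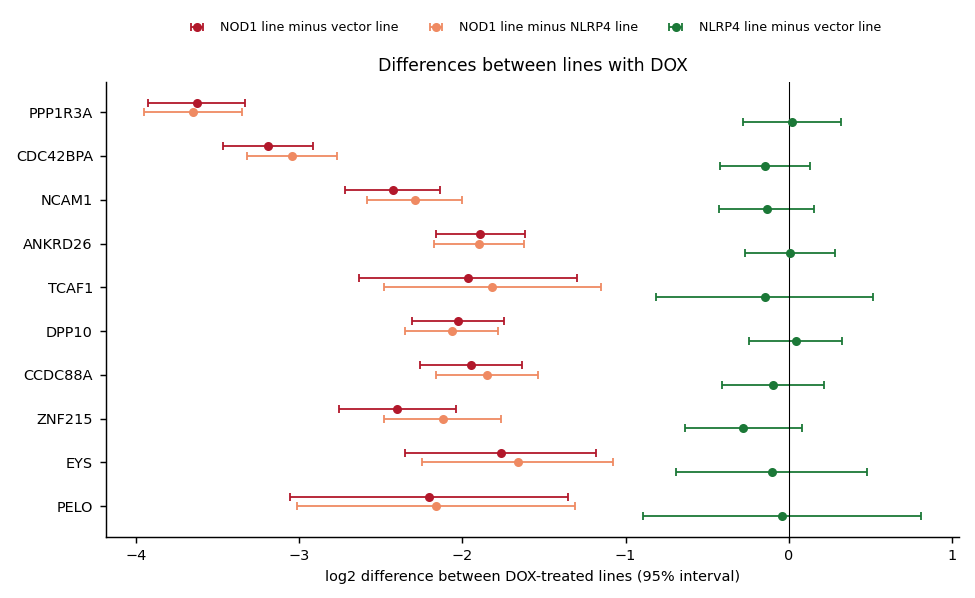
Differences in log2 signal with 95% intervals for the 10 genes, between the NOD1 and vector lines, between the NOD1 and NLRP4 lines and between the NLRP4 and vector lines, all with DOX (n = 4 arrays a group, limma fit over all 24 arrays). The differences that involve the NOD1 line lie between -3.65 and -1.66, and those between the NLRP4 and vector lines between -0.28 and 0.04.

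The DOX effects were read first on the probe set that represents each gene. In the NLRP4 line, where DOX raised NLRP4 itself from 8.09 to 11.93, none of these 10 probe sets was called by limma between samples with and without DOX, and none had an unadjusted p under 0.05. Of all probe sets, 0.0154% were called and 1584 had an unadjusted p under 0.05. The differences of the 10 genes lay between -0.17 and 0.20, with 95% intervals that reached from -0.86 to 0.87. In the vector line, described without a test because the arrays without DOX entered the choice, the differences ran from -0.04 to 0.33. In the NOD1 line, likewise without a test, they ran from -0.23 to 0.97 with a median of 0.08. The value of 0.97 belongs to EYS, whose mean was 7.65 ± 0.911 (SD, n = 4) without DOX and 8.62 ± 0.124 (SD, n = 4) with it, with overlapping arrays. Of the probe sets that do not represent a gene, 8180403 of TCAF1 had higher means with DOX in all 3 lines. In the NLRP4 line its difference was 0.46, with a 95% interval from 0.16 to 0.76 and no overlap of arrays; its unadjusted limma p was 0.00447, its adjusted p 0.440 and its exact permutation p 0.0286. In the vector and NOD1 lines, described without a test, it was 0.35 and 0.34, with overlapping arrays. DOX and array position cannot be told apart in any of the 3 lines.

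Ordered by mean signal, the 2 NOD1 groups were the lowest of the 6 in all 10 genes, and they overlapped each other in all 10. The arrays without DOX of the NOD1 and vector lines entered the choice, so part of this order was fixed by it. No share over all probe sets was counted for this order. Among the 4 groups of the vector and NLRP4 lines, the 30 pairs that neighbour each other in this order all had overlapping arrays. Groups next to each other in mean are those most apt to overlap. Pairs farther apart can differ: for NCAM1 the NLRP4 arrays without DOX did not overlap the vector arrays without DOX. With DOX in the NOD1 line, PPP1R3A, CDC42BPA, DPP10, ZNF215 and PELO had means under the low-signal reference, whereas NCAM1, ANKRD26, TCAF1, EYS and CCDC88A did not. Outside the NOD1 line all 10 genes were above it in every group. A choice on large falls from the vector line favours such genes.

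The genes that lie beside the 10 were also lower in part. For each gene the 3 nearest measured genes on each side in the RefSeq order, and any that overlap it, gave 61 neighbours. By limma, 24 of them (39.3%) were lower in the NOD1 than in the vector line with DOX and 3 were higher, beside 12% of all probe sets that were lower. Their median difference in log2 signal was -0.22, and 23 of the 24 were also lower than in the NLRP4 line. None of the 61 was called between the NLRP4 and vector lines with DOX.

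The neighbours of CCDC88A fell most often, with 5 of 6 called: CFAP36 by -1.0, CLHC1 by -0.96, PPP4R3B, a subunit of protein phosphatase 4, by -0.73, MTIF2, a mitochondrial translation factor, by -0.55 and PNPT1 by -0.32. The nearest measured gene, PRORSD1P, had a difference of -0.11 and was not called. Beside ANKRD26, 4 of 6 were called: ACBD5 at -1.02, YME1L1, the nearest, at -0.62, MASTL, a mitotic kinase, at -0.51 and ABI1 at -0.23. Beside PPP1R3A, 4 of 6 were called: SAMTOR at -0.89, FOXP2, the nearest, at -0.86, SMIM30 at -0.63 and MDFIC at -0.27. FOXP2, a transcription factor, went from a mean of 11.25 in the vector line to 10.39 in the NOD1 line, and CLHC1 from 9.34 to 8.38.

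PHF3, which overlaps EYS, fell by 1.14 on the log2 scale (limma adjusted p = 5.03e-07), from 12.52 to 11.38, and PTP4A1, beyond PHF3 on the same side of EYS, by 0.27. ZNF214, the zinc finger gene next to ZNF215, fell by 0.82 but was under the low-signal reference in all groups, and the olfactory receptor genes OR2D2 and OR10A4 fell by 0.71 and 0.52. With DOX, OR2D2 went from 8.26 in the vector line to 7.56 in the NOD1 line, and OR10A4 from 8.49 to 7.97. Both lay near the low-signal reference, which was itself set on olfactory receptor probe sets. Beside CDC42BPA, ZNF678 was lower by -1.39 and ZNF847P by -1.65, while ITPKB was higher by 0.33 and the nearest gene, COQ8A, had a difference of 0.09. Beside DPP10, INSIG2 at -0.89 and SLC35F5 at -0.63 were lower, EN1 at 0.23 was higher, and the nearest gene, ACTR3, was not called at -0.16. Beside PELO, EMB at -0.54 and PARP8 at -0.29 were lower, and ITGA2, the nearest, was not called at -0.34 (limma adjusted p = 0.0907). NCAM1 and TCAF1 had no neighbour called lower than in the vector line: PTS beside NCAM1 was higher by 0.54, TTC12, its nearest, had a difference of -0.27 (limma adjusted p = 0.0719), and OR2F2, the nearest to TCAF1, one of -0.05. Against the NLRP4 line TTC12 was called lower, at -0.29 (limma adjusted p = 0.0471). The 6 neighbours of TCAF1, among them taste and olfactory receptor genes, had means between 6.21 and 8.27 in the vector line, near or under the low-signal reference. Whether the share of lower neighbours differs between loci was not tested.

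**Figure D4:**
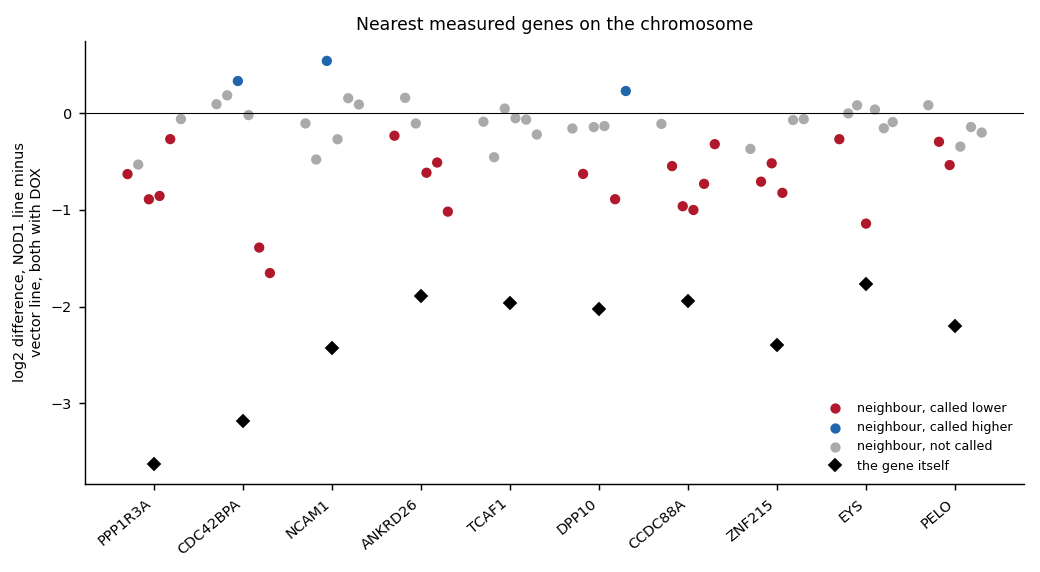
Difference in log2 signal between the NOD1 and vector lines with DOX for each of the 10 genes and for its measured neighbours on the chromosome (RefSeq order); black diamonds are the 10 genes, red and blue points are neighbours called lower and higher by limma at an adjusted p under 0.05, and grey points were not called. The 10 genes lie between -3.63 and -1.77, and their neighbours between -1.65 (ZNF847P) and 0.54 (PTS).

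The lists of relatives and partners around the 10 genes, of which ZNF215 and EYS had none, held genes that rose and genes that fell. Of 115 measured genes in 8 lists of relatives and partners, 18 (15.7%) were lower and 26 (22.6%) higher in the NOD1 than in the vector line with DOX by limma, beside 12% lower and 13.5% higher of all probe sets, with a median difference in log2 signal of 0.03, the same as over all probe sets. Between the NLRP4 and vector lines with DOX only NCAM2 was called, higher in the NLRP4 line by 0.64 (limma adjusted p = 0.0392).

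Around PPP1R3A, 20 measured genes of glycogen targeting and metabolism gave 2 lower (10%) and 4 higher (20%), beside 12% and 13.5% of all probe sets. PPP1CA and PPP1CB, which encode catalytic subunits of the phosphatase that PPP1R3A binds, went opposite ways, at 1.15 ± 0.163 (SE; limma adjusted p = 1.01e-05) and -0.43 ± 0.0696 (SE; 4.73e-05). PPP1R3B, another glycogen-targeting subunit, had a difference of -0.15 and was not called.

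In the NCAM1 list of adhesion and polysialylation genes, 2 of 16 were lower (12.5%) and 3 higher (18.8%), a lower share near that of all probe sets, 12%. NCAM2, the paralog of NCAM1, was higher by 1.28 ± 0.115 (SE; limma adjusted p = 2.97e-08), from a mean of 11.06 in the vector line to 12.34 in the NOD1 line. ST8SIA4, an enzyme that adds polysialic acid to NCAM1, was lower by -1.28 ± 0.171 (SE; 4.91e-06). So the paralogs NCAM1 and NCAM2 differed between the NOD1 and vector lines in opposite directions. The gain of NCAM2 was not particular to the NOD1 line. With DOX, NCAM2 was higher in the NLRP4 than in the vector line by 0.64, and higher in the NOD1 than in the NLRP4 line by 0.64 (limma adjusted p = 0.0392 and 0.000171).

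In the girdin list, 1 of 13 was lower (7.69%) and 3 were higher (23.1%), beside 12% and 13.5% of all probe sets. HOOK3, a microtubule adaptor related in sequence to girdin, was lower by -0.89 (limma adjusted p = 0.000108), and DNM2, a dynamin of endocytosis, was higher by 0.79 (2.08e-05). The paralogs CCDC88B and CCDC88C were not called, at 0.06 and -0.13. Among 9 centriolar genes listed with ANKRD26, 2 were lower (22.2%) and 1 higher (11.1%). SCLT1, a distal appendage component, was at -0.86 (limma adjusted p = 3.78e-06) and TTBK2, a kinase recruited there, at -0.32 (0.0301).

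Among 8 TRPM genes listed with TCAF1, TRPM7 was lower by -0.77 (limma adjusted p = 9.04e-06) and TRPM2 higher by 0.34 (0.00339). TRPM8, the channel for which TCAF1 is named, was under the low-signal reference in all groups. Of 14 dipeptidyl peptidase and Kv4 genes listed with DPP10, 1 was lower (7.14%) and 3 were higher (21.4%). DPP7 was at 0.77 (limma adjusted p = 1.56e-05) and DPP8 at -0.57 (0.000399). DPP6, a close paralog of DPP10, was under the low-signal reference in all groups.

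The ribosome rescue list around PELO gave 5 lower (29.4%) and 7 higher (41.2%) of 17, beside 12% and 13.5% of all probe sets. ABCE1, which recycles ribosomes after rescue, was lower by -0.70 (limma adjusted p = 2.63e-06), and LTN1, the ubiquitin ligase of stalled ribosomes, by -1.06 (3.45e-06). HBS1L, the direct partner of PELO, named here after its value was seen, was lower by -0.43 (0.000246). Of the 7 higher genes, also named after their values were seen, TCF25, of the quality control complex with LTN1, was at 1.05 (4.68e-06), and ASCC2, which acts on collided ribosomes, was at 0.80 (7.77e-05).

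The profile over the 6 groups was most closely shared, outside the 10, by TMEM14EP, CCDC186, DPY19L2P2, UGGT2 and EPCAM. Likeness was the root mean square difference between a gene's 6 centred group means and the median profile of the 10 genes, in log2 units, and it was 0.169, 0.221, 0.237, 0.243 and 0.25 for these genes. EPCAM, an epithelial adhesion molecule, had group means of 9.01, 8.77, 8.72 and 9.23 in the vector and NLRP4 groups, in the order without and with DOX, and 7.12 and 6.94 in the NOD1 groups. Among the 10 genes themselves, ZNF215 at 0.102 was closest to the median profile, and PPP1R3A at 0.641 and CDC42BPA at 0.448 were the farthest, with the deepest falls. Ranked among all genes from the closest, EYS was at 19, CDC42BPA at 106 and PPP1R3A at 490. Many genes outside the 10 thus lay closer to the median profile than CDC42BPA or PPP1R3A.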

How the data were processed

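The authors deposited 1 table of log2 expression values for 33297 probe sets on 24 arrays; per the submitters' processing notes it was made with RMA and oligo; versions: not given in the sources used here. Array medians in this table ranged from 8.06 to 8.85, so the values of the 19460 probe sets with 1 gene symbol (1754 have several, 12083 none) were quantile normalised between arrays. Symbols came from the platform annotation, updated through RefSeq GRCh38.p14, which matched 19429 of these probe sets; that assembly served for names, gene order and lengths, since no build is given for the arrays. Group means were fitted over all 24 arrays with limma 3.58.1 in R 4.3.3 (lmFit, eBayes, 18 residual degrees of freedom), with Benjamini-Hochberg adjustment over all probe sets and a threshold of 0.05. The fit was tested on simulated data. Exact permutation tests were two-sided. Replicate arrays correlated at 0.981 to 0.993 within groups, and 4 arrays a group limit the precision. Of several probe sets for a gene, the brightest on average represented it. A fold is written as at least where the lower group was under the low-signal reference. The 10 genes, the gene lists and the tests were chosen with earlier results of these data known. Genes named from lists were the called ones with the lowest p-values and close relatives of the 10 genes, of which the latter were chosen after their values were seen; neighbours were named where called or nearest. The list around CDC42BPA entered the total over all lists and is not reported here on its own. Comparisons using arrays of the selecting contrast were not tested, though these arrays entered the spread estimate of the main limma fit. Alternatives were other normalisations, probe set choices, filters, weights, variance priors, array choices and leaving out each replicate.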

Additional observations from a re-analysis of the deposited data

Results flagged for a closer look

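Single arrays stood apart from the other 3 of their group in 3 of the 96 groups of probe set and condition examined, and chance flags about 1 in 20 such groups. For DPP10, replicate 4 of the vector line with DOX had a log2 signal of 9.18, and the others lay between 8.51 and 8.62. For PELO, replicate 2 of the vector line without DOX was at 9.21, and the others lay between 10.25 and 10.34. For EYS probe set 8127391, replicate 4 of the NLRP4 line with DOX was at 10.75, and the others lay between 10.09 and 10.15. All 3 arrays belong to the vector or NLRP4 line and lay above every NOD1 array of the same gene.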

How the results depend on the processing

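Every one of the 10 genes was called lower in the NOD1 line with DOX under all 17 alternatives tried in each comparison, against the vector and against the NLRP4 line, and none was called in the other tested comparisons under any alternative run. Against the vector line, 4961 of the 19460 probe sets were called in either direction in the main setting. This number was 3927 with the values as deposited and 4237 with arrays centred on their medians. TCAF1 moved most: leaving out single replicates gave differences from -2.46 to -1.70 against the vector line. The number of probe sets called depended on the processing where it was small. Between the NLRP4 and vector lines with DOX it was 6, and became 1 with the values as deposited, 2 with arrays centred on their medians, 20 with array weights, 3 with only the DOX-treated arrays, and 2 to 6 when single replicates were left out (2 or 3 without any one but replicate 3 of the NLRP4 line with DOX). Between the NLRP4 line with and without DOX it was 3, and became 1 with the values as deposited, 5 with centred arrays, 1 with only the arrays compared, and 1 to 8 when single replicates were left out, with 8 without replicate 4 of the NLRP4 line with DOX, 3 and 2 without replicates 3 and 4 of that line without DOX, and 1 otherwise. Over all 33297 probe sets the NOD1 comparisons called 7667 and 7603 against 4961 and 4908; this setting changes the normalisation and the number tested together, and the cause was not tested. With the values as deposited the median of all probe sets moved to -0.08, -0.21, 0.12 and 0.26 in the 4 tested comparisons. No paired analysis was possible because the array numbers in the labels are unique to each array and pair no samples across groups. Signal limits the lower end: for the 5 genes under the low-signal reference in the NOD1 line with DOX, the fold is a lower bound. With 4 arrays a group and 1 line per construct, neither line nor DOX can be told apart from array position.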

Other observations

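The share of lower genes in the NOD1 line with DOX was also counted by gene length, a split added after the 10 genes were seen to be long. Of 3120 measured genes over 100 kb, limma called 21.5% lower and 8.37% higher than in the vector line with DOX. Of the 15272 shorter genes, 10.2% were lower and 14.7% higher. These are counts over genes, which are not replicates, and include the 10 genes themselves.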
